A study of Mus musculus with 16 samples.

Results

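The 10 genes described here belong to cell cycle control and the p53 response. They are the CDK inhibitors Cdkn1a, Cdkn1b, Cdkn1c, Cdkn2c and Cdkn2d, and the p53 target genes Ccng1, Mdm2, Trp53inp1, Btg2 and Gadd45a. They were measured in B16-OVA tumors, grown in mice from a melanoma line that carries ovalbumin. A probe set, the unit of measurement of the array, was taken for a gene when that gene was its only symbol in the platform annotation. This gave 18 probe sets for the 10 genes, of 45037 probe sets and 18193 genes with a symbol of their own on the array. Where a gene had several probe sets, which held for 6 of the 10, the brightest over all tumors stood for the gene and the others are given beside it.

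Tumor cells were injected under the skin of the flank of C57BL/6-Ly5.1 mice aged 6 to 12 weeks, and tumors were analysed at day 18, with 4 mice in each of 4 groups and 1 array per tumor. The MEKi+CD40 group received GDC-0623, an inhibitor of the kinase MEK, at 30 mg/kg daily for about 2 weeks, together with anti-CD40 antibody. The MEKi group received GDC-0623 and control IgG, the CD40 group vehicle (MCT) and anti-CD40 antibody, and the control group vehicle and control IgG. Antibodies were given on treatment days 3, 5 and 7 and 1 day before the analysis. All mice carried the same tumor line, so the host and the implant were shared by all groups. RNA came from pieces of whole tumor, in which fewer cells of a type and less RNA per cell cannot be told apart. Melanocyte markers were high in every tumor, with each tumor's mean over 8 genes within −0.16 to 0.15 of the control mean of 13.61 log2 units. The share of tumor cells in each piece was not measured, and this mean does not give it.

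Cyclin-dependent kinases (CDKs) drive the cell cycle when bound to cyclins. The CIP/KIP proteins p21, p27 and p57, encoded by Cdkn1a, Cdkn1b and Cdkn1c, bind cyclin and kinase together, whereas the INK4 proteins p18 and p19, encoded by Cdkn2c and Cdkn2d, bind CDK4 and CDK6 alone. The transcription factor p53 responds to DNA damage and other stress by inducing genes that stop the cycle or kill the cell, and Mdm2, itself induced by p53, marks p53 for destruction and so closes a feedback loop. In many cell types ERK signalling, which MEK activates, keeps p27 protein low and can induce p21.

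The promoters of these genes show where p53 can be read in the sequence, and the following stretches were chosen for that reason, with Btg2 added for its cyclic AMP response element. RefSeq windows of 250 bases before to 50 after a start site (GRCm38.p6) were found for 8 of the 10 genes, 10 windows in all. Cdkn1c and Trp53inp1 had no window. Each stretch runs 5′ to 3′ on the strand of the gene, and capitals mark the motif.
Cdkn1a, chr17:29090898-29090977, plus strand: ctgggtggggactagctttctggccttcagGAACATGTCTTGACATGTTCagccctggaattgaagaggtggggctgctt
Ccng1, chr11:40755432-40755511, minus strand: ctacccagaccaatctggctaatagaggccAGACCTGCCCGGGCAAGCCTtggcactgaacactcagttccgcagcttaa
Mdm2, chr10:117710900-117710979, minus strand: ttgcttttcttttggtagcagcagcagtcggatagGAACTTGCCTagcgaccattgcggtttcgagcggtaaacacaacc
Btg2, chr1:134079278-134079357, minus strand: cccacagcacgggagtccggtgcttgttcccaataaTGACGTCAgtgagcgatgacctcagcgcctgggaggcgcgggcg

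In Cdkn1a and Ccng1 the capitals are a p53 decamer, the unit of which paired copies make a p53 response element, next to a second decamer that departs from the motif at no more than 1 position and keeps its central C and G. Such a pair, with a spacer of up to 13 bases, stood in 0.627% of all 32851 mouse windows and in the windows of 2 of these genes. A single p53 decamer, as in Mdm2, stood in 8.36% of all windows and in those of 5 of these genes, Cdkn2d and Gadd45a included. The cyclic AMP response element TGACGTCA of Btg2 stood in 1.79% of all windows and in none of the other windows of these genes. Of the other motifs, searched on both strands, the forkhead core TGTTTAC was found only in Mdm2 (3.65% of all windows), the CCAAT box CCAAT in 7 genes, all but Cdkn1a (37.4%), and the SP1 motif GGGCGG in 7 genes, all but Ccng1 (35.7%). The cell cycle homology region TTTGAA (17.9%) and the E2F motifs TTTGGCGC or TTTCCCGC (1.56%) were in none of them. A match describes these letters and is not a measured binding site.

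The array gave log2 signals, and the background level was set at 4.94, below which 95 in 100 of the 44 olfactory receptor probe sets had their mean. Of the 18 probe sets 15 lay above it, and 9 of the 10 genes. Cdkn1c did not. A few tumors stood apart from their group. The mean of 15 skeletal muscle genes was 7.00 above the control mean in MEKi+CD40 tumor 1, 4.13 in MEKi+CD40 tumor 3 and 2.80 in CD40 tumor 3, and at most 0.83 in the others. MEKi+CD40 tumor 1 also had the widest gap between the 3′ and 5′ control probe sets, with 0.91 for Actb and 0.38 for Gapdh, where no other array exceeded 0.44 and 0.08. A mean of 14 mitosis genes, relative to the control mean, ranged from −1.60 to −0.65 in the 4 MEKi+CD40 tumors. It was −0.75 to 0.06 in MEKi, −0.34 to −0.002 in CD40 and −0.52 to 0.32 in control tumors, so MEKi overlapped the combination. A mean of 13 genes of MEK/ERK output was 0.045 to 0.417 in MEKi and −1.335 to 0.012 in MEKi+CD40 tumors. It was −0.198 to 0.213 in CD40 and −0.269 to 0.183 in control tumors. The degree of MEK inhibition at sampling was not tested.

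None of the 10 genes was called in limma, with the adjusted p (Benjamini-Hochberg) taken over all probe sets and a threshold of 0.05, in any of the 6 comparisons between groups or in the interaction. The background of calls differed widely between the comparisons. Over all probe sets the share called was 0.00888% in MEKi+CD40 against control, 0% in MEKi against control and 0% in CD40 against control. It was 1.15% in MEKi+CD40 against MEKi, 4.74% in MEKi+CD40 against CD40, 0.893% in CD40 against MEKi and 0% in the interaction. At an unadjusted p under 0.05, 1 of the 10 genes passed in MEKi+CD40 against control, where 21.2% of all probe sets did. In MEKi against control Cdkn2c, Trp53inp1 and Gadd45a passed (6.91% of all probe sets), and in CD40 against control Cdkn1b, Cdkn2c and Trp53inp1 (8.56%). With all 16 arrays in 1 fit, Mdm2 was called in MEKi+CD40 against control, with 10.9% of all probe sets, and in MEKi+CD40 against MEKi, with 10.4%. By their brightest probe sets, none of the 10 genes was apart from either single treatment in the combination. Of all probe sets, 13% were apart from MEKi there and 14.3% from CD40.

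**Figure D1:**
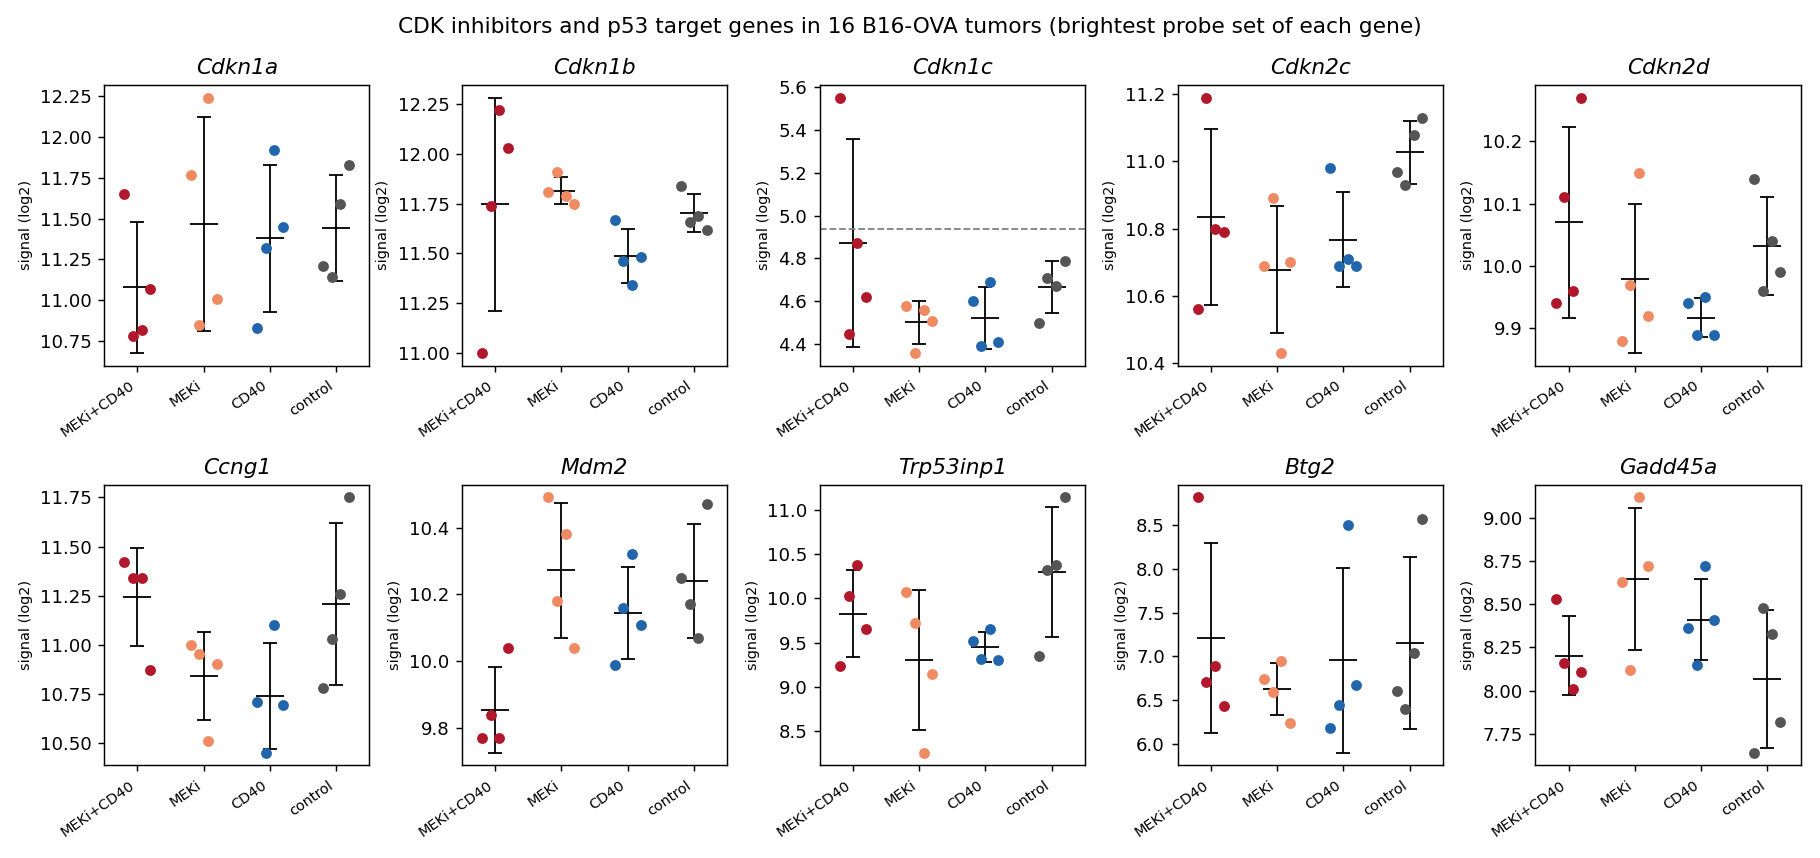
Signal in log2 units (vertical axis) of each gene in the 4 tumors of each group, with a point per tumor and a bar for the mean with its SD. Mdm2 lay lowest in the MEKi+CD40 tumors, at 9.77 to 10.04, against 10.07 to 10.47 in control tumors, and the dashed line beside Cdkn1c is the background level of 4.94.

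By the brightest probe sets, Mdm2 was the only one of the 10 genes with MEKi+CD40 tumors all on one side of the control tumors. Its brightest probe set gave 9.77, 9.84, 9.77 and 10.04 in MEKi+CD40 tumors, 10.49, 10.18, 10.38 and 10.04 in MEKi tumors, 9.99, 10.16, 10.32 and 10.11 in CD40 tumors, and 10.25, 10.17, 10.07 and 10.47 in control tumors. The combination lay below control without overlap, touched the lowest MEKi tumor at 10.04, and overlapped 1 CD40 tumor. Being fully apart and lower than control held for 8.55% of all probe sets, so 1 gene of 10 is near that background. The difference from control was −0.39 (SE 0.108, adjusted p = 0.0879), a level 0.766 times that of control. The exact two-sided permutation test gave 0.0286, the smallest p that 4 tumors against 4 allow. Any 2 groups of 4 without overlap give this value, so it adds nothing to the separation itself.

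The Mdm2 difference from the single treatments was of like size. It was −0.42 against MEKi (SE 0.117, adjusted p = 0.0921) and −0.29 against CD40 (SE 0.100, adjusted p = 0.137). The single treatments differed from control by 0.03 in MEKi and −0.10 in CD40, with 95% intervals of −0.24 to 0.31 and −0.34 to 0.15. In the order MEKi, control, CD40 and MEKi+CD40, from high to low, the first 3 groups thus overlapped throughout.

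A second Mdm2 probe set above background gave 6.76, 8.21, 7.69 and 8.30 in MEKi+CD40 tumors, 8.69, 8.47, 8.83 and 8.56 in MEKi tumors, 8.45, 9.08, 8.78 and 8.42 in CD40 tumors, and 8.73, 8.61, 8.48 and 8.77 in control tumors. Here all 4 MEKi+CD40 tumors lay below all 12 others, whose lowest was 8.42. The share of all probe sets apart in this way was not counted. Apart and lower were 8.55% against control, 7.83% against MEKi and 6.75% against CD40. The difference from control was −0.91 (SE 0.309, adjusted p = 0.138). The lowest value belonged to MEKi+CD40 tumor 1, the tumor with the wide 3′ to 5′ gap, and without it the difference was −0.58 by this probe set and −0.36 by the brightest. The third probe set, near 3.58, lay below background.

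**Figure D2:**
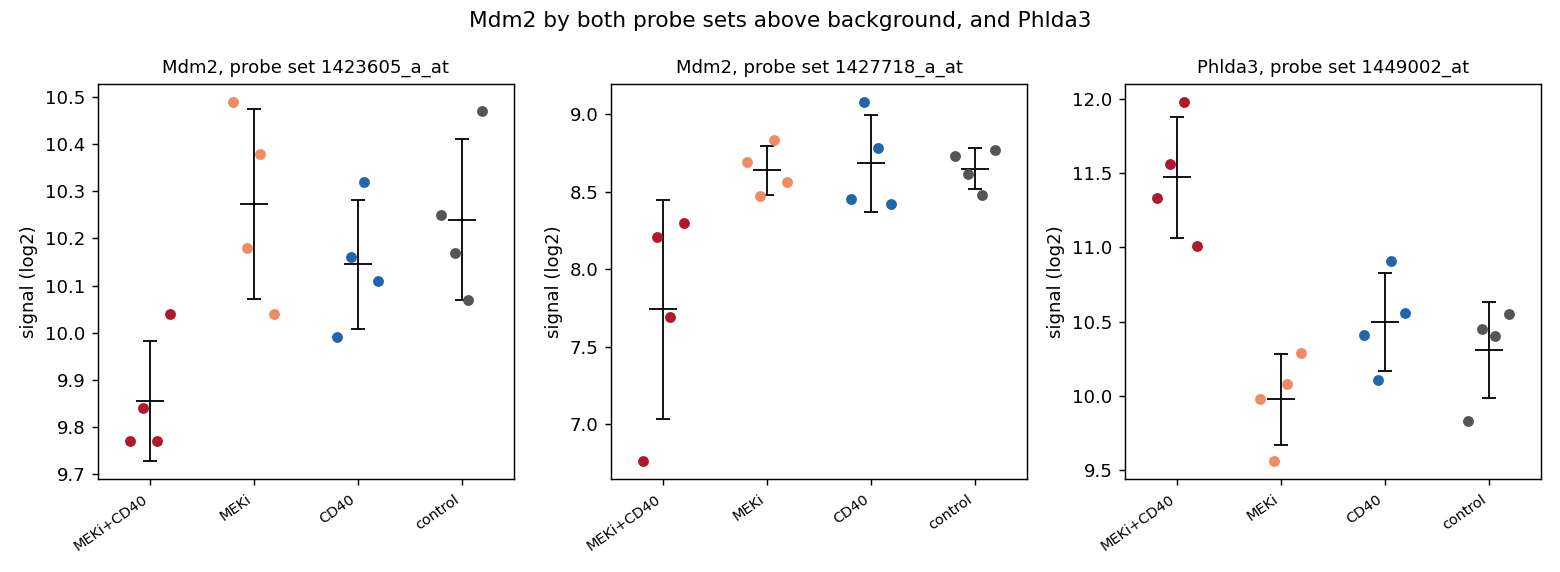
Signal in log2 units (vertical axis) per tumor, with mean and SD per group, of the 2 Mdm2 probe sets above background and of Phlda3, another p53 target gene. All MEKi+CD40 tumors were at or below 8.30 in the second Mdm2 probe set, against 8.42 or more elsewhere, while in Phlda3 they were at 11.01 or more, against 10.91 or less elsewhere. The share of all probe sets apart in this way was not counted.

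Cdkn1a, which encodes p21 and is the best known p53 target among the CDK inhibitors, overlapped between all groups. It read 11.65, 10.78, 10.82 and 11.07 in MEKi+CD40 tumors, 11.77, 10.85, 12.24 and 11.01 in MEKi tumors, 10.83, 11.32, 11.92 and 11.45 in CD40 tumors, and 11.21, 11.14, 11.59 and 11.83 in control tumors. Each group spanned at least 0.69 log2 units. The difference from control was −0.36 in MEKi+CD40 (95% interval −0.88 to 0.15), 0.03 in MEKi (−0.65 to 0.70) and −0.06 in CD40 (−0.59 to 0.46). Without MEKi+CD40 tumor 1 the difference in MEKi+CD40 was −0.55, and the other 3 tumors of that group, at 10.78 to 11.07, lay below all control tumors, the lowest of which was 11.14. A second probe set gave the same sign in MEKi+CD40, −0.41 (SE 0.169, adjusted p = 0.212). The highest values, in MEKi tumor 3 and CD40 tumor 3, came with fibroblast markers 2.80 and 2.51 above the control mean. Those markers were at 3.79 in MEKi+CD40 tumor 1, where Cdkn1a was 11.65. They were also raised in MEKi+CD40 tumor 3, at 2.18, but Cdkn1a was low there, at 10.82. Control tumor 4 and MEKi tumor 1 read 11.83 and 11.77 in Cdkn1a, with fibroblast markers at −0.04 and −0.145. The part of fibroblasts in these values was not tested.

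Cdkn1b, which encodes p27, was steady in all groups but the combination. It read 11.00, 11.74, 12.22 and 12.03 in MEKi+CD40 tumors, 11.81, 11.91, 11.79 and 11.75 in MEKi tumors, 11.67, 11.46, 11.34 and 11.48 in CD40 tumors, and 11.84, 11.66, 11.69 and 11.62 in control tumors. The combination held both the lowest tumor and the highest pair of tumors of the series, an SD of 0.54 against 0.07 in MEKi, 0.14 in CD40 and 0.10 in control tumors. The lowest was again MEKi+CD40 tumor 1, and without it the other 3 had an SD of 0.24 and a mean 0.29 above control.

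Between the single treatments, Cdkn1b was lower in all 4 CD40 tumors than in all 4 MEKi tumors, by −0.33 (SE 0.086, adjusted p = 0.138), a ratio of 0.797. Leukocyte transcripts were apart in the same comparison, with all 4 CD40 tumors above all 4 MEKi tumors in 8 of 9 pan-leukocyte, 6 of 8 macrophage and 4 of 5 T cell genes. Of all probe sets, 3.65% were apart and higher there. The pan-leukocyte mean, relative to the control mean, was 0.58 to 2.83 in CD40 tumors and −2.87 to −0.43 in MEKi tumors, and the macrophage mean was 0.58 to 2.76 in CD40 tumors and −2.65 to 0.11 in MEKi tumors. The part of leukocytes in the Cdkn1b difference was not tested. No other of the 10 genes was apart in that comparison, where 5.34% of all probe sets were apart and lower. A second Cdkn1b probe set read 7.71, 8.06, 7.35 and 7.56 in CD40 tumors and 7.81, 7.83, 7.98 and 7.95 in MEKi tumors, which overlap. This second probe set also gave 5.80 in MEKi+CD40 tumor 1 and 7.73, 7.80 and 7.63 in the other combination tumors, against 8.11, 7.98, 7.93 and 7.86 in control tumors, so that these groups did not overlap. In MEKi+CD40 against control 8.55% of all probe sets were apart and lower. The combination tumors also lay just below all MEKi tumors, the nearest at 7.80 and 7.81. Against MEKi, 7.83% of all probe sets were apart and lower. The probe sets thus differed in sign for the combination against control, at 0.05 (SE 0.237) for the brightest and −0.73 (SE 0.413) for the second, with adjusted p-values of 0.935 and 0.355.

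Cdkn1c, which encodes p57, was near the background level in all groups. It read 5.55, 4.45, 4.87 and 4.62 in MEKi+CD40 tumors, 4.36 to 4.58 in MEKi tumors, 4.39 to 4.69 in CD40 tumors and 4.50 to 4.79 in control tumors. Only MEKi+CD40 tumor 1 passed 4.94, and the next highest was MEKi+CD40 tumor 3. These are the 2 tumors with the most skeletal muscle transcripts, at 7.00 and 4.13 above the control mean, and the part of muscle in this signal was not tested.

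The INK4 genes varied little. Cdkn2c read 10.56, 11.19, 10.80 and 10.79 in MEKi+CD40 tumors, 10.69, 10.89, 10.43 and 10.70 in MEKi tumors, 10.98, 10.69, 10.71 and 10.69 in CD40 tumors, and 10.97, 10.93, 11.08 and 11.13 in control tumors. All 4 MEKi tumors lay below all control tumors, by −0.35 (SE 0.104, adjusted p = 0.615), a ratio of 0.785. In MEKi against control 1.68% of all probe sets were apart and lower. By the brightest probe sets, Cdkn2c was the only one of the 10 genes that was. In CD40 tumors 3 of 4 lay below control and tumor 1 among it, with a difference of −0.26 (95% interval −0.47 to −0.05, adjusted p = 0.551). The combination, at −0.19 (−0.49 to 0.11), overlapped control through tumor 2, and was −0.10 without tumor 1, the lowest of that group.

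Cdkn2d had the smallest spread within groups of the 10 genes. It read 9.94, 10.11, 9.96 and 10.27 in MEKi+CD40 tumors, 9.88, 9.97, 10.15 and 9.92 in MEKi tumors, 9.94, 9.89, 9.95 and 9.89 in CD40 tumors, and 10.14, 9.96, 10.04 and 9.99 in control tumors. The CD40 tumors lay just below the control tumors, the nearest at 9.95 and 9.96, by −0.12 (SE 0.069, adjusted p = 0.68). In CD40 against control 3.17% of all probe sets were apart and lower. By the brightest probe sets, Cdkn2d was the only one of the 10 genes that was.

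**Figure D3:**
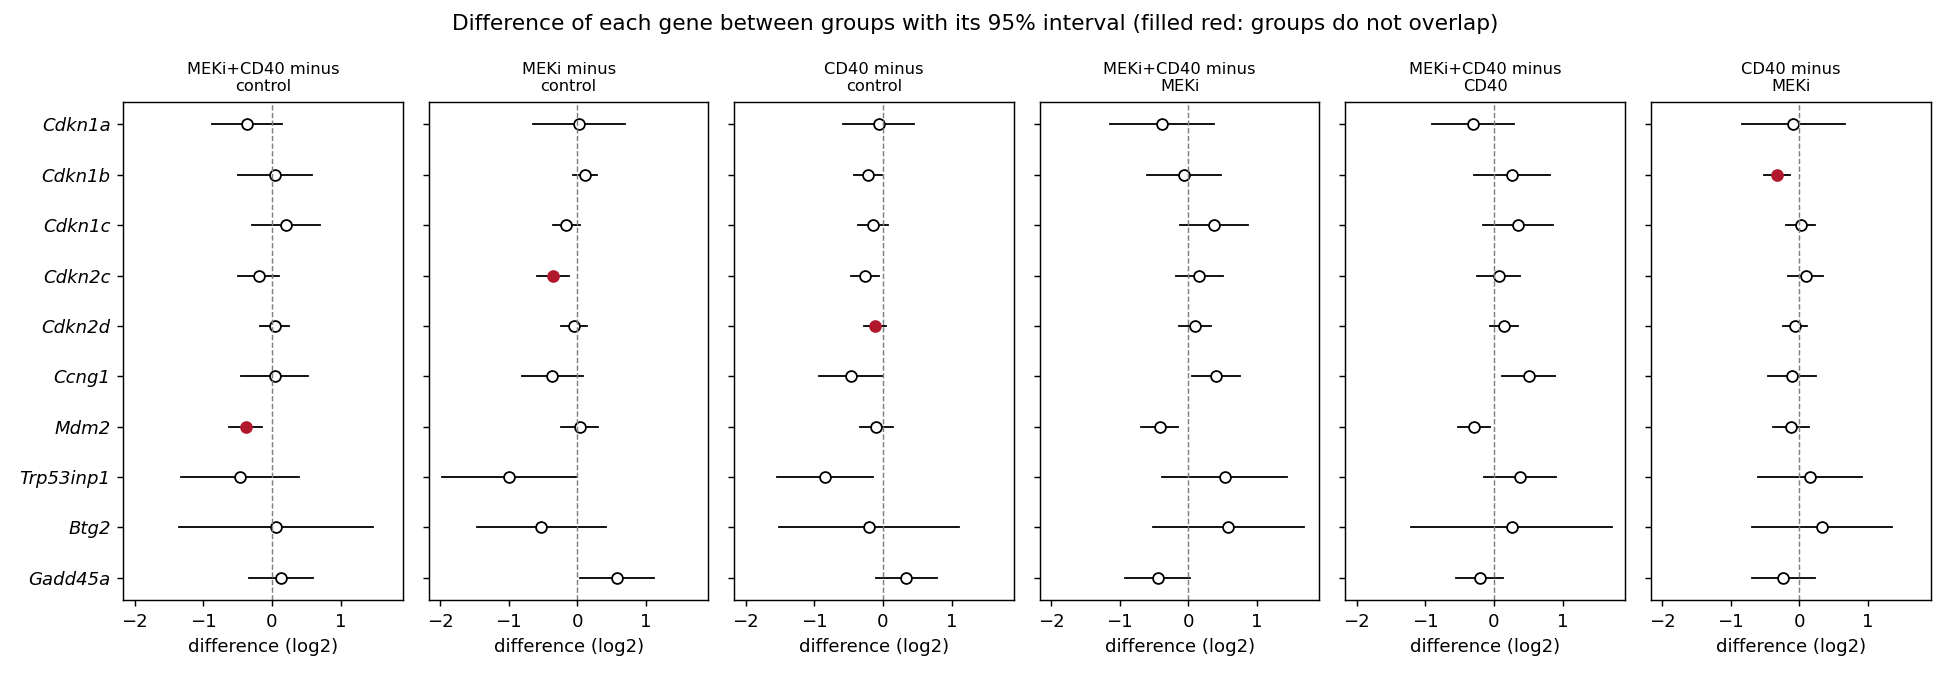
Difference in log2 units (horizontal axis) of each gene in the 6 comparisons, with its 95% interval from limma, filled red where the groups did not overlap. The 4 red points, all negative, are Mdm2 in MEKi+CD40 against control, Cdkn2c in MEKi against control, Cdkn2d in CD40 against control and Cdkn1b in CD40 against MEKi.

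Ccng1 encodes cyclin G1, a p53 target that recruits a phosphatase to Mdm2. It read 11.42, 11.34, 11.34 and 10.87 in MEKi+CD40 tumors, 11.00, 10.95, 10.51 and 10.90 in MEKi tumors, 10.71, 10.45, 11.10 and 10.69 in CD40 tumors, and 10.78, 11.03, 11.26 and 11.75 in control tumors. The combination lay near control, with 0.04 (95% interval −0.45 to 0.52), and both single treatments were lower, with −0.37 in MEKi (−0.81 to 0.08) and −0.47 in CD40 (−0.94 to 0.00). The interaction, the difference of MEKi+CD40 from MEKi less that of CD40 from control, was therefore positive at 0.87 (SE 0.278, adjusted p = 0.154). It was 0.90 (adjusted p = 0.313) and 0.39 (adjusted p = 0.632) by the other probe sets.

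The other 2 Ccng1 probe sets gave lower signals in the single treatments too. One read 8.97, 8.93, 8.38 and 8.90 in MEKi tumors, below all control tumors at 9.06, 9.33, 9.33 and 9.69, with a difference of −0.56 (SE 0.164, adjusted p = 0.612). The other read 9.23, 8.61, 9.28 and 8.92 in CD40 tumors, below all control tumors at 9.30, 9.62, 9.61 and 9.96, with −0.61 (SE 0.177, adjusted p = 0.511). Of all probe sets, 1.68% were apart and lower in MEKi against control and 3.17% in CD40 against control. The first overlapped control in CD40 tumors, at −0.44 (adjusted p = 0.511). The second overlapped control in MEKi tumors, at −0.48 (adjusted p = 0.729). In the combination these 2 probe sets parted from the brightest, with −0.61 (SE 0.247) and −0.20 (SE 0.283) against control. MEKi+CD40 tumor 1 was the lowest of the combination tumors in both, at 8.08 and 8.59, and the highest in the brightest probe set, at 11.42. Without that tumor the differences from control were −0.38, 0.08 and, in the brightest, −0.02.

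Trp53inp1 encodes a stress protein that works with p53 and in autophagy. It read 9.24, 10.03, 10.38 and 9.66 in MEKi+CD40 tumors, 10.07, 9.72, 8.26 and 9.15 in MEKi tumors, 9.52, 9.32, 9.66 and 9.30 in CD40 tumors, and 9.35, 10.32, 10.38 and 11.14 in control tumors. MEKi+CD40, MEKi and control tumors spread over 1.14 to 1.81 log2 units, and control tumor 1 lay among the treated tumors. The differences from control were −0.47 in MEKi+CD40 (95% interval −1.33 to 0.39), −0.998 in MEKi (−1.98 to −0.01) and −0.85 in CD40 (−1.55 to −0.15), with adjusted p-values of 0.516, 0.718 and 0.56. Without MEKi+CD40 tumor 1 the difference in the combination was −0.27, without control tumor 1 −0.79 and without control tumor 4 −0.19. In MEKi it was −0.65 without tumor 3. The interaction was 1.38 (SE 0.545, adjusted p = 0.251). Its second probe set had a mean of 4.61, below background.

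Btg2, an early p53 target that slows growth by speeding the decay of messenger RNA, had the largest spread within groups of the 10 genes. It read 8.81, 6.71, 6.89 and 6.44 in MEKi+CD40 tumors, 6.74, 6.59, 6.95 and 6.24 in MEKi tumors, 6.19, 6.45, 8.50 and 6.68 in CD40 tumors, and 6.61, 6.40, 7.04 and 8.57 in control tumors. One tumor in each group but MEKi stood at 8.50 or above, with all others at 7.04 or below. The second probe set was also high in CD40 tumor 3 and control tumor 4, at 7.60 and 7.42, but read 5.73 in MEKi+CD40 tumor 1. With such spread the 95% interval for the combination against control ran from −1.35 to 1.47 around 0.06. The difference was −0.48 without MEKi+CD40 tumor 1 and 0.53 without control tumor 4.

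Gadd45a encodes a protein of the stress response that binds p21 and takes part in DNA repair. It read 8.53, 8.16, 8.01 and 8.11 in MEKi+CD40 tumors, 8.63, 8.12, 9.12 and 8.72 in MEKi tumors, 8.36, 8.15, 8.72 and 8.41 in CD40 tumors, and 7.64, 8.48, 8.33 and 7.82 in control tumors. It was the only one of the 10 genes with a positive difference in CD40 against control, 0.34 (95% interval −0.10 to 0.79), and the most positive in MEKi against control, 0.58 (0.04 to 1.12, adjusted p = 0.698). In the combination the difference was 0.14 (−0.33 to 0.60), but 0.03 without MEKi+CD40 tumor 1 and −0.01 without control tumor 1. The interaction was −0.79 (SE 0.306, adjusted p = 0.241).

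As a list, the 10 genes were counted above and below control. In MEKi+CD40, 6 were higher and 4 lower, with a median of 0.04 where the median of all probe sets was 0.01. That tally turned on single tumors. Without MEKi+CD40 tumor 1 it was 3 higher and 7 lower with a median of −0.06, and without control tumor 1 it was 3 and 7 with −0.11. The median was also below 0 without control tumor 2 (−0.11), MEKi+CD40 tumor 3 (−0.05) or MEKi+CD40 tumor 4 (−0.04). In MEKi 4 were higher and 6 lower (median −0.11, all probe sets 0.01), and in CD40 1 was higher and 9 lower (median −0.17, all probe sets −0.03). With any 1 tumor left out these medians ran from −0.21 to −0.06 in MEKi and from −0.22 to −0.10 in CD40, with 2 to 4 and 1 to 3 genes higher. These comparisons share the control tumors. In the interaction 4 of the 10 had an unadjusted p under 0.05, where 14.3% of all probe sets did, namely Ccng1, Trp53inp1 and Cdkn2c with positive values and Gadd45a with a negative one. For Cdkn2c the interaction was 0.42 (SE 0.177, adjusted p = 0.29).

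**Figure D4:**
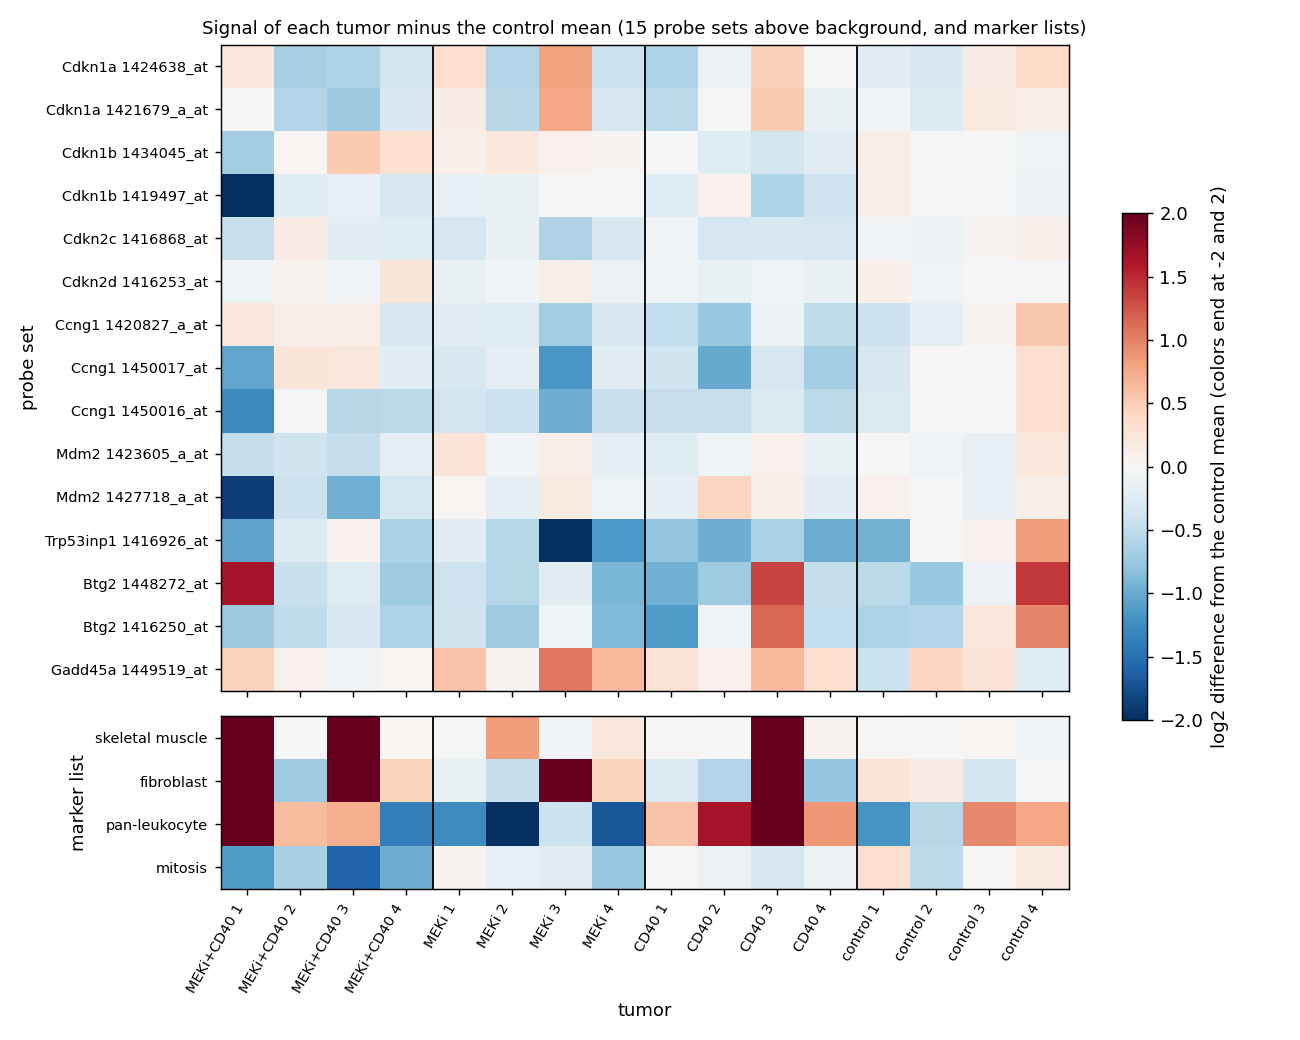
Signal of each tumor less the control mean, in log2 units by color, for the 15 probe sets above background and, below them, for 4 marker lists. MEKi+CD40 tumor 1, in the first column, was at 5.80 in one Cdkn1b probe set and 6.76 in one Mdm2 probe set, the lowest of all tumors in both, and had the highest muscle score.

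Genes around these 10 were read from 5 lists. Of 7 other CDK inhibitors and pocket proteins, none was called against control. In MEKi+CD40 against CD40, 1 was called, where 4.74% of all probe sets were. Rbl1, which encodes the pocket protein p107, was lower in MEKi+CD40 than in CD40 by −0.98 (SE 0.163, adjusted p = 0.0298), with 9.41, 9.48, 8.72 and 9.04 in MEKi+CD40 tumors against 10.20, 10.19, 10.12 and 10.06 in CD40 tumors. That call was lost without any 1 CD40 tumor, MEKi+CD40 tumor 3 or MEKi+CD40 tumor 4, with an adjusted p of up to 0.106 and differences of −1.09 to −0.83. Against control it was −0.98 (adjusted p = 0.0548), and Rb1, the retinoblastoma gene itself, was 0.59 (SE 0.113, adjusted p = 0.0517), apart from control in the opposite direction. In MEKi+CD40 against control, 5.41% of all probe sets were apart and higher and 8.55% apart and lower.

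Among 11 measured genes for p53 regulators, 2 kinase genes of the DNA damage checkpoint were called lower in MEKi+CD40 against CD40 and none higher. In that comparison 4.74% of all probe sets were called, 2.46% as lower. Chek1 read 8.07, 8.31, 6.73 and 7.58 in MEKi+CD40 tumors against 9.47, 9.38, 8.88 and 9.46 in CD40 tumors, a difference of −1.63 (SE 0.324, adjusted p = 0.0359). Atr, which activates the Chek1 kinase, differed by −0.60 (SE 0.126, adjusted p = 0.0402). The Chek1 call was lost without any 1 CD40 tumor, MEKi+CD40 tumor 3 or MEKi+CD40 tumor 4 (adjusted p up to 0.119), and the Atr call without CD40 tumor 1, 2 or 4 or MEKi+CD40 tumor 3 or 4 (up to 0.129). Under median centring the Atr call was lost as well (adjusted p = 0.0543). Against control, Chek1 was −1.54 (adjusted p = 0.0572) and Ppm1d, a phosphatase that switches p53 off, −0.54 (adjusted p = 0.0866). Trp53 itself was not analysed here, since no probe set had it as the only symbol.

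Of 28 measured other p53 target genes, Phlda3, an inhibitor of AKT signalling, rose in MEKi+CD40 against MEKi, with 1.15% of all probe sets called. It read 11.01 to 11.98 in MEKi+CD40 tumors (11.33, 11.56, 11.98 and 11.01), 9.98, 9.56, 10.08 and 10.29 in MEKi tumors, 10.41, 10.11, 10.91 and 10.56 in CD40 tumors, and 9.83, 10.45, 10.40 and 10.55 in control tumors. All combination tumors lay above the other 12. The share of all probe sets apart in this way was not counted. Apart and higher were 5.41% against control, 5.22% against MEKi and 7.52% against CD40. The Phlda3 difference was 1.49 from MEKi (SE 0.224, adjusted p = 0.0496), 0.97 from CD40 (SE 0.231, adjusted p = 0.0529) and 1.16 from control (SE 0.228, adjusted p = 0.0522). The call against MEKi held in 3 of 8 fits with a tumor left out and was lost without any 1 MEKi tumor or MEKi+CD40 tumor 3, with an adjusted p of up to 0.163 and differences of 1.32 to 1.65. Without the 3 tumors with muscle transcripts the difference was 1.31 (adjusted p = 0.137). The call was also lost on rescaling, with an adjusted p of 0.0511 by cyclic loess and 0.0536 by median centring.

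In MEKi+CD40 against CD40, 1 gene of that list of 28 was called higher and 1 lower, where 4.74% of all probe sets were called. Abhd4, a lipid hydrolase, rose by 0.53 (SE 0.105, adjusted p = 0.0355), and Psrc1, which encodes a spindle protein, fell by 1.07 (SE 0.170, adjusted p = 0.0286). Both calls were lost without CD40 tumor 1, 2 or 4 or MEKi+CD40 tumor 3 or 4, and that of Abhd4 also without CD40 tumor 3, with adjusted p-values of up to 0.113 for Abhd4 and 0.102 for Psrc1. Without the tumors with muscle transcripts Abhd4 was at 0.42 (adjusted p = 0.114) and Psrc1 at −1.11 (adjusted p = 0.0419). Psrc1 was also −1.31 against control (SE 0.237, adjusted p = 0.0517). Against control, the p53 targets of this list lay on both sides of control in the same tumors, 16 higher and 12 lower, with a median of 0.10.

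Of 8 measured relatives of Btg2, Gadd45a and Trp53inp1, Trp53inp2, an autophagy gene, rose in MEKi+CD40 against CD40, with 4.74% of all probe sets called. It read 11.06, 11.19, 11.50 and 11.34 in MEKi+CD40 tumors against 10.22, 9.81, 10.49 and 10.41 in CD40 tumors, a difference of 1.04 (SE 0.163, adjusted p = 0.0279). The call was lost without CD40 tumor 1, 2 or 4 or MEKi+CD40 tumor 3 or 4, with differences of 0.90 to 1.13 over the 8 fits with a tumor left out and an adjusted p of up to 0.0899. Tob2 and Tob1, which like Btg2 slow growth, were lower in all CD40 than in all control tumors, at −0.49 (SE 0.117, adjusted p = 0.472) and −0.40 (SE 0.122, adjusted p = 0.532). In that comparison 3.17% of all probe sets were apart and lower. The list as a whole had 4 genes higher and 4 lower there, with a median of −0.01.

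The cyclins and kinases that the inhibitors bind were the list with the lowest median in MEKi+CD40 against control, −0.61, with 8 of 10 lower and none called. That count depended on the fit. It was 6 with all 16 arrays in 1 fit, where 10.9% of all probe sets were called. It was 3 with a filter on low signal (2012 of 27208 probe sets called) and 4 with 1 probe set per gene (1243 of 18193). Ccna2, the cyclin of S phase, was −1.29 (SE 0.267, adjusted p = 0.053) and Cdk4, the kinase that INK4 proteins bind, −0.43 (SE 0.094, adjusted p = 0.0548). Against CD40, 2 genes of this list were called, where 4.74% of all probe sets were. Ccna2 fell by 1.11 (SE 0.213, adjusted p = 0.0343) and Cdk1, the mitotic kinase, by 0.94 (SE 0.178, adjusted p = 0.0338). Either call was lost without any 1 CD40 tumor, MEKi+CD40 tumor 3 or MEKi+CD40 tumor 4 (adjusted p up to 0.113), and without the tumors with muscle transcripts Cdk1 was at −0.73 (adjusted p = 0.0554). In MEKi and CD40 against control the medians of this list were −0.02 and −0.08. The mitosis score moved with these genes, at −1.09 in MEKi+CD40, −0.27 in MEKi and −0.14 in CD40 relative to control.

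**Figure D5:**
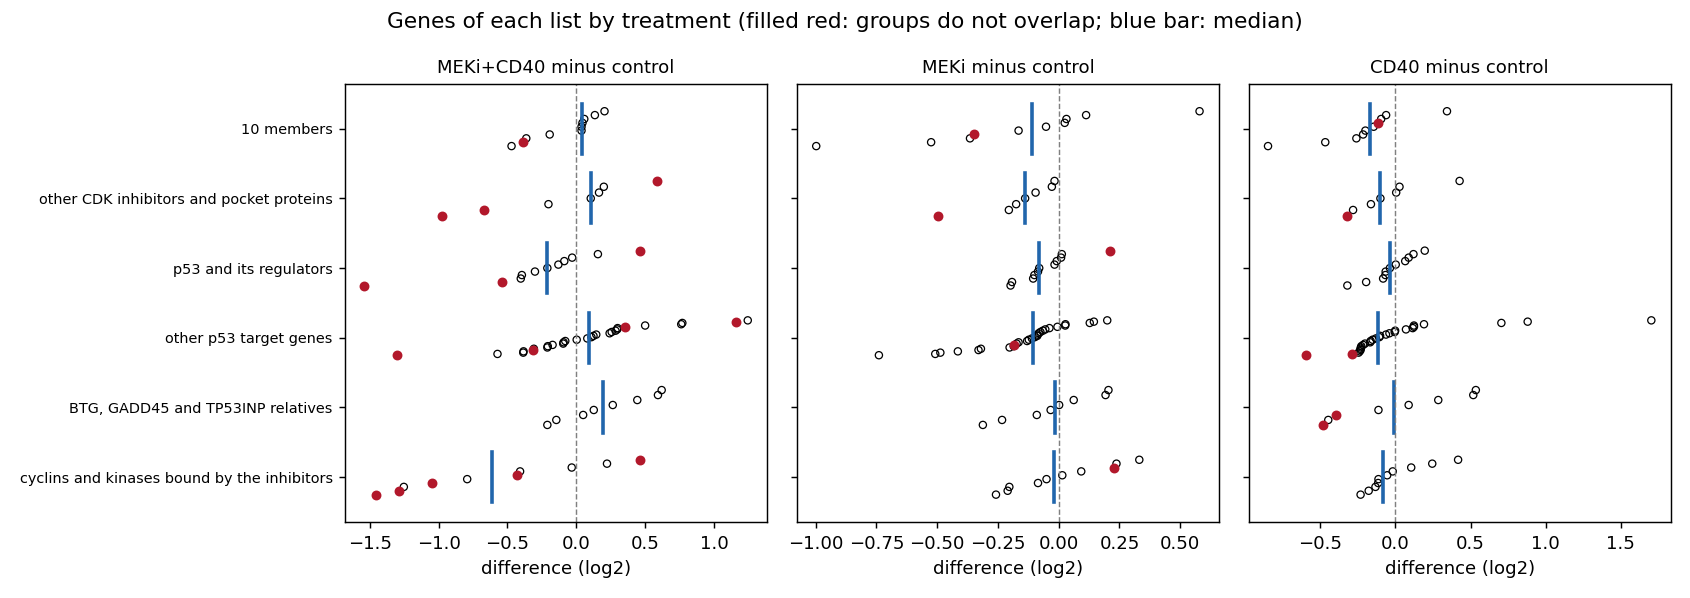
Difference from control in log2 units (horizontal axis) of every gene of the 10 and of 5 further lists, 1 panel per treatment, with a blue bar at each median and red points where the groups did not overlap. In MEKi+CD40 the cyclins and kinases had a median of −0.61, while the 10 genes had 0.04.

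Over the 16 tumors, the genes most like Mdm2 in pattern were Raph1 (Pearson r = 0.924), Gxylt1 (0.895) and Scyl2 (0.88), among 12699 genes above background. Those most like Cdkn1b were Tex2 (0.929), Cxcl17 (0.901) and Tug1 (0.898), and those most like Ccng1 were Pik3r1 (0.847), Mcee (0.832) and Klhl20 (0.828). These 3 genes of the 10 had the smallest p in any comparison. The correlations describe arrays that share groups and tumors standing apart, and carry no test.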

How the data were processed

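RNA of 16 B16-OVA tumors (200 ng each) was labelled by 3′ in vitro transcription and hybridised to Affymetrix mouse arrays. The deposited values are log2 signals that the authors obtained in Chipster by robust multichip averaging (RMA, which corrects background, equalises the distributions of the arrays and summarises each probe set). No version of it was stated in the sources used here. Changes are therefore relative to the bulk of transcripts, and array medians lay between 5.66 and 5.75. The values entered the tests as deposited. Of 45101 probe sets, 64 controls of the manufacturer were dropped. One symbol was given for 34945 of the others, several for 932 and none for 9160, and 39.7% lay at or below background.

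Groups came from the sample labels. A comparison used the 8 arrays of its groups and the interaction all 16. Models were fitted with limma 3.58.1 under R 4.3.3 (lmFit, eBayes), and p-values were adjusted over all 45037 probe sets. Tumors are separate mice bearing the same line, so p-values measure the spread between mice. Single genes were also tested by exact two-sided permutation over tumors. All 10 members were named, with SE and adjusted p where groups did not overlap. Of the 5 lists (other CDK inhibitors and pocket proteins, p53 regulators, other p53 targets, relatives, cyclins and kinases), up to 3 genes per comparison were named at an adjusted p under 0.05, and otherwise up to 2 with the smallest p against control. The members and lists were chosen with earlier results of these data known. The fit was tested on simulated data. The number of arrays limits the precision. Promoter windows came from RefSeq (GRCm38.p6). Python 3.11.15 with pandas 2.3.3 and numpy 2.4.6 made the tables, and matplotlib 3.10.9 the figures.

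As alternatives, the replicate number entered as a block, all arrays were fitted jointly, low probe sets were filtered, each gene kept its brightest probe set, and members took the mean of their probe sets. Scaling was changed to cyclic loess or median centring, eBayes was run with trend and robust options, arrays were weighted, and each tumor was left out in turn. Leaving out the 3 tumors with muscle transcripts and adding the muscle score to the joint fit were chosen after seeing the data.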

Additional observations from a re-analysis of the deposited data

Results flagged for a closer look

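Among 40 sets of 4 tumors (10 genes in 4 groups), 2 had a tumor far from the other 3, and chance flags about 1 set in 20. Cdkn2c was 10.98 in CD40 tumor 1, with the other 3 CD40 tumors at 10.69 to 10.71. Ccng1 was 10.87 in MEKi+CD40 tumor 4, with the others at 11.34 to 11.42.

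By its brightest probe set, Ccng1 moved in opposite directions by context. Every MEKi+CD40 tumor lay above the MEKi mean and every CD40 tumor below the control mean, and likewise every MEKi+CD40 tumor lay above the CD40 mean and every MEKi tumor below the control mean. The effects differed by 0.87, and the interaction in limma had an adjusted p of 0.154. A second probe set of Ccng1 did not show this: there MEKi+CD40 was −0.05 from MEKi and −0.17 from CD40, as CD40 and MEKi were −0.44 and −0.56 from control, and the interaction was 0.39 (adjusted p = 0.632). The third showed it in the group means only. There MEKi+CD40 was 0.28 from MEKi and 0.42 from CD40, while CD40 and MEKi were −0.61 and −0.48 from control. Its interaction was 0.895 (adjusted p = 0.313). MEKi+CD40 tumor 1, at 8.59, lay below the MEKi mean of 9.145 and the CD40 mean of 9.01. Gadd45a went the other way: every MEKi+CD40 tumor lay below the MEKi mean and every CD40 tumor above the control mean, a difference of −0.79 with an adjusted p of 0.241.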

How the results depend on the processing

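Of 132 recomputed counts of called members, 130 stayed at 0, leaving out each tumor included (0 to 0 in every comparison). The exceptions both came with all 16 arrays in 1 fit, which called 1 gene in MEKi+CD40 against control and 1 in MEKi+CD40 against MEKi. Both were Mdm2, with unchanged differences of −0.39 and −0.42 and adjusted p-values of 0.0422 and 0.0304. Against control, its adjusted p ranged from 0.0422 to 0.315 over 19 alternatives. The joint fit called 4904 probe sets in MEKi+CD40 against control, a filter on low signal 2012 and 1 probe set per gene 1243, against 4 in the fit of 8 arrays.

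All 75 recomputed differences of the 4 members that stood apart by their brightest probe sets kept their sign. Mdm2 in MEKi+CD40 against control ran from −0.45 to −0.31 with single tumors left out, and was −0.30 (adjusted p = 0.315) without the tumors with muscle transcripts. Of 165 counts over the 5 lists, 118 stayed within 1.5 times. Deviations from the group means correlated between same-numbered tumors at r from −0.52 to 0.47. No reference from differently numbered tumors was computed, so these values cannot decide whether the numbers pair the tumors. With the replicate block the count of called members was 0 in each comparison, and Mdm2 had an adjusted p of 0.175. All 9 list calls were lost with the block (adjusted p from 0.0548 to 0.0743), under which no probe set was called in those comparisons. Probes near background, such as those of Cdkn1c, cannot show a decrease.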
